A study of Mus musculus with 16 samples.

Results

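The genes described here are the lncRNA RUS, listed in the tables as Gm20754, the 2 protein-coding genes that flank it on mouse chromosome 3, Slitrk3 and Bche, and the other 5 Slitrk genes, Slitrk1, Slitrk2, Slitrk4, Slitrk5 and Slitrk6. They were taken by gene symbol and are 8 of the 55365 genes listed alike in the tables of both days. All 8 were found, each on both days. The question put to them was whether Slitrk3, the Slitrk gene beside RUS, responded to an shRNA against RUS unlike its paralogs elsewhere in the genome.

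RNA-seq was performed on C57BL/6 mouse neural stem cells (NSCs) from embryonic cortices of stage E15 to E16, which the study dissected from pooled mixed-sex embryos. All cultures received a lentivirus 1 day after seeding, which carried either a scrambled shRNA (shRNA CON) or an shRNA against RUS (shRNA RUS). Cells were harvested on day 5, when the mitogen bFGF was withdrawn, or on day 7 after seeding. Each shRNA and day had 4 libraries, 16 in all. No group lacked virus, and RUS was targeted by a single shRNA sequence, so that effects of this sequence on other RNAs and effects of RUS depletion cannot be told apart. The 4 libraries of a group are numbered replicates in the labels, which do not say whether they came from separate isolations. The p-values below measure the spread between these libraries.

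Slitrk proteins are neuronal transmembrane proteins with leucine-rich repeats outside the cell. They act as adhesion molecules at synapses, where they bind LAR-type receptor protein tyrosine phosphatases (Ptprd, Ptprs and Ptprf) on the partner neuron. Slitrk3 is known for its role at inhibitory synapses through Ptprd, whereas several of the others have been linked to excitatory synapses. Bche encodes butyrylcholinesterase, a secreted enzyme that hydrolyses choline esters. RUS is a long noncoding RNA of neural cells.

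In the GENCODE annotation of the GRCm38 genome, RUS occupied chr3:73066316-73594830 on the plus strand. Slitrk3 (chr3:73047265-73057803) and Bche (chr3:73635808-73708415) both lay on the minus strand. Slitrk3 ended 8513 bp before RUS began, and the 2 genes pointed away from each other. Bche lay 40978 bp beyond the other end of RUS. The paralogs were on other chromosomes, with Slitrk1, Slitrk5 and Slitrk6 on chromosome 14 and Slitrk2 and Slitrk4 on the X chromosome. The RefSeq promoter windows of the 3 locus genes are shown because Slitrk3 and Bche changed in different directions on day 5. On day 7 Slitrk3 was not called. The window of Slitrk5 is shown because this gene was the paralog called on both days. Each window runs from 250 bases before to 50 bases after a transcription start in the GRCm38.p6 assembly, is written from 5′ to 3′ on the strand of its gene, and has CG dinucleotides in capitals. The Slitrk3 and Slitrk5 windows lie wholly inside the GENCODE genes (chr14:111675097-111683141 for Slitrk5), whose annotated starts are further upstream. The windows are chr3:73057017-73057316 (minus) for Slitrk3, chr3:73066101-73066400 (plus) for Gm20754, chr3:73708366-73708665 (minus) for Bche and chr14:111675777-111676076 (plus) for Slitrk5.
Slitrk3: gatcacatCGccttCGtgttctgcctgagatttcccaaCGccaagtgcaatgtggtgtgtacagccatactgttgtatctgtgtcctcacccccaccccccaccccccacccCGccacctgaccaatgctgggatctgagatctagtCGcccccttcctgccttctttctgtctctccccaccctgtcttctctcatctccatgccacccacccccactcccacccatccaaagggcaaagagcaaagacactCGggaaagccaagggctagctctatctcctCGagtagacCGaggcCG
Gm20754: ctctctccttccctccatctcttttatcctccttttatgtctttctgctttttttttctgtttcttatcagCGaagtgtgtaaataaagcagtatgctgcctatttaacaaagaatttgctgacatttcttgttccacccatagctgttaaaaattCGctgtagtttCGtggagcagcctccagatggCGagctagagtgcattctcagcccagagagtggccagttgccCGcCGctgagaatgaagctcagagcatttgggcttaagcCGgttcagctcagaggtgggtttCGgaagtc
Bche: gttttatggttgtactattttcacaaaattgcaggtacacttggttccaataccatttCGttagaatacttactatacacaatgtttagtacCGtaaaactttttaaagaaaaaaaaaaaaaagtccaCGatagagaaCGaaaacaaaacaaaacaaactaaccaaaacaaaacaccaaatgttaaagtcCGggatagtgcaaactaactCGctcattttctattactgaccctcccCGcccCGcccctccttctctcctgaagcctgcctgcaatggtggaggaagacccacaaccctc
Slitrk5: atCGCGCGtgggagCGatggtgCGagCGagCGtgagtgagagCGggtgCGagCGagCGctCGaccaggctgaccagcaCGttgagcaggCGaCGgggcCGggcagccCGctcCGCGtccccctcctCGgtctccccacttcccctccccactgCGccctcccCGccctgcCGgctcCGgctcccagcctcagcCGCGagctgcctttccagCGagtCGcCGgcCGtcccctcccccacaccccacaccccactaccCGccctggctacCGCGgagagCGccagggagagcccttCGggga

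The Slitrk3, Gm20754 and Bche windows held 9, 8 and 8 CG dinucleotides, close to the median of 7 over 32851 windows of the same length. The Slitrk5 window held 35, more than 93.0% of all windows. Windows were found for 7 of the 8 genes. Slitrk1 had 9 CG dinucleotides, the 2 windows of Slitrk2 had 8 and 17, and Slitrk6 had 4. The letters CCAAT, searched on both strands, occurred in the Slitrk3 and Bche windows and in 1 of the 2 Slitrk2 windows, and in 37.4% of all windows. The letters TATAAA (13.6% of all windows) were in none of the members' windows. The E box letters CAGCTG (16.3%) were also in none, and CAGATG (17.2%) occurred in the Gm20754 and Slitrk1 windows. These matches describe the letters of the windows only.

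Levels are given as scaled TPM, that is, the deposited TPM (transcript abundance normalized for length and library) divided by a library factor computed over the 16 libraries. TPM accounts for transcript length, so that levels of different genes can be set side by side. The deposited tables hold no counts, so the depth of the libraries is unknown. Between 25615 and 29126 genes were above 0 TPM in a library. Groups were compared by limma on log2(scaled TPM + 0.1), with Benjamini-Hochberg adjustment over every gene whose mean reached 0.1 TPM, at a threshold of 0.05. A gene that passed is said to be called. Fold changes on this scale understate changes of low genes.

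The labelled cell type was checked against marker lists. Stem cell and radial glia markers (8 genes) summed to 11694 to 13862 scaled TPM in shRNA CON on day 5. They summed to 6164 to 6491 on day 7. Vim and Fabp7 made up most of this sum, with means of 9181 and 3617 on day 5 and 4739 and 1155 on day 7. Between these days 2 of the 8 markers were called higher by limma and 3 lower. Nes was among the higher ones (57.6 to 102), so that the sum does not describe every marker. Neuron markers (10 genes) summed to 518 to 596 and 755 to 841, and microglia markers (8 genes) to 123 to 135 and 274 to 300. The cultures were therefore mixed, and in bulk samples fewer cells of a type and less RNA per cell cannot be told apart. Several of these lists moved with the shRNA, as given below.

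RUS itself, the target of the shRNA, was near the lower limit of the tables. On day 5 its levels were 0.235, 0.117, 0.185 and 0.167 scaled TPM in shRNA CON, and 0.0592, 0, 0.139 and 0.345 in shRNA RUS. The groups overlapped, and the library labelled shRNA RUS replicate 4 was above all shRNA CON libraries of that day. On day 7 the levels were 0.653, 0.661, 0.238 and 0.506 in shRNA CON and 0.500, 0.348, 0 and 0.0364 in shRNA RUS, again with overlap. Between shRNA RUS and shRNA CON the log2 fold change was -0.40 ± 0.44 on day 5 (SE; adjusted p = 0.519, limma) and -1.28 ± 0.61 (adjusted p = 0.114) on day 7. Without shRNA RUS replicate 1 on day 7, the library with the highest level in its group, it was -1.72 with an adjusted p of 0.0359, and without replicate 3, which is listed at 0, it was -0.83 with an adjusted p of 0.261. On day 5 the omission of single libraries gave values from -0.77 to -0.08. Pseudocounts of 1 and 0.01 gave -0.05 and -1.19 on day 5 and -0.34 and -2.37 on day 7, with no call. The authors' mean of normalized counts over the 8 libraries of a day was 3.86 for Gm20754 on day 5 and 8.57 on day 7, so that a few reads decide each value. At this level the knockdown could not be read reliably from single libraries.

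Among the 7 members tested on day 5, 2 were called higher (Bche and Slitrk5) and 1 was called lower (Slitrk3) in shRNA RUS. Slitrk6 was under the minimum level and was not tested on that day. Over all 22581 genes tested, 14.8% were called higher and 17.9% lower, so that calls were common throughout the table. On day 7 all 8 members were tested, and 2 were called higher (again Bche and Slitrk5) and 0 lower. The background on that day was 23.4% called higher and 25.8% called lower of 24606 genes. At an unadjusted limma p under 0.05, 1 member was lower on day 7, namely Slitrk2.

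**Figure D1:**
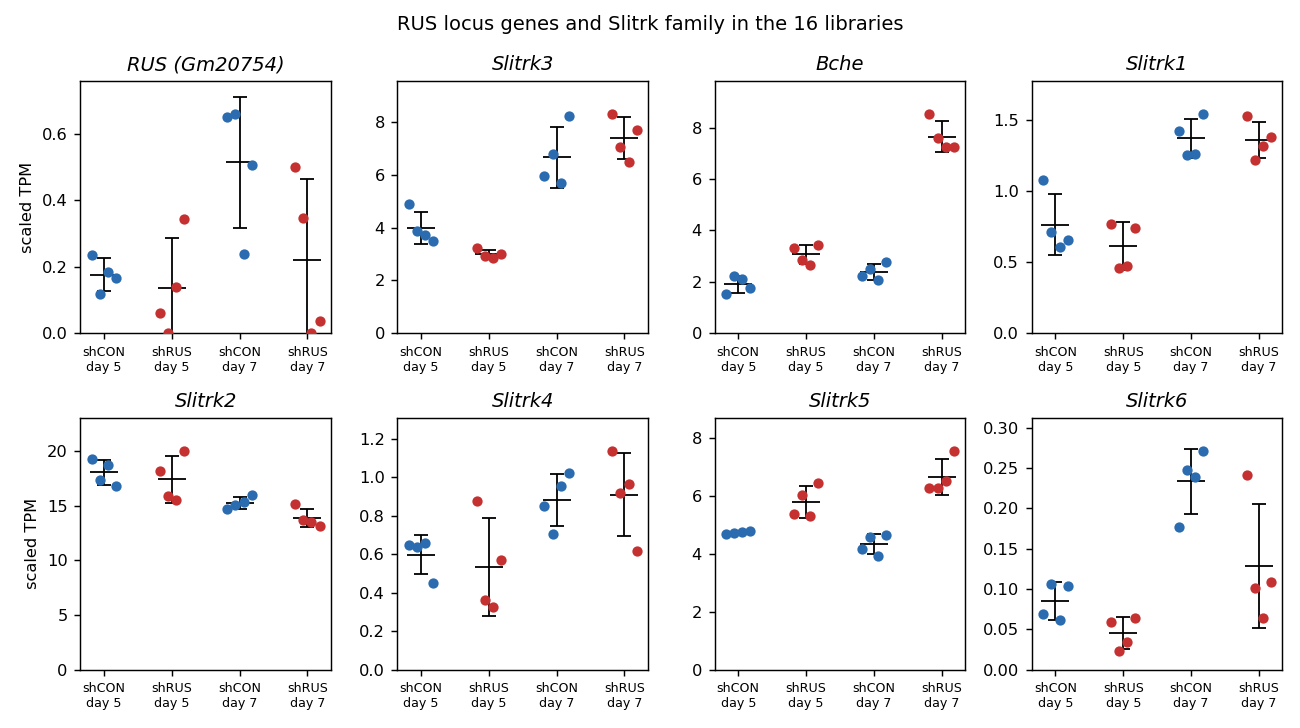
Levels of the 8 genes in each library in scaled TPM (linear axes starting at 0, a separate axis for each gene). Points are the 4 libraries of each shRNA (shCON, shRUS) and day in order of replicate number, and bars give the mean ± SD, cut off at 0 where they would pass below it. The shRUS points of Bche lie above all shCON points of the same day, and those of RUS overlap with shCON on both days.

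The split of all called genes on day 5 depended on how libraries were scaled. It was 3349 higher and 4034 lower here, 1768 and 6037 with TPM as deposited, and 2418 and 4859 with scaling to the 75th percentile. Over all genes tested on day 5 the median was -0.06 on the log2 scale here, -0.21 with TPM as deposited and -0.13 with scaling to the 75th percentile. On day 7 it was -0.03 in both the scaled values and TPM as deposited, and -0.08 at the 75th percentile. Between days the shift was larger, and it is given with those comparisons.

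Slitrk3, the neighbour of RUS, was slightly lower in shRNA RUS on day 5. Its levels were 4.89, 3.87, 3.73 and 3.50 scaled TPM in shRNA CON and 3.23, 2.93, 2.86 and 3.01 in shRNA RUS. The groups did not overlap, although the gap between them was small next to the distance of shRNA CON replicate 1 from the other control libraries. This was a log2 fold change of -0.39 ± 0.12 (SE, n = 4 against 4; limma adjusted p = 0.0299; 95% confidence interval -0.65 to -0.13). Of all genes tested on day 5, 24.3% had this or a more negative value, so that such a fall was common. The sign of the Slitrk3 change held under all 18 alternatives tried, with values from -0.54 to -0.22. The call was lost in 8 of them. It was lost with quantile normalization (adjusted p = 0.178) and with no filter on low values (0.0533). It was also lost without any single one of shRNA CON replicates 1, 2 and 3 and shRNA RUS replicates 2 and 3 (adjusted p from 0.0525 to 0.0738).

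On day 7 Slitrk3 was not called. The levels were 5.95, 6.79, 5.69 and 8.26 scaled TPM in shRNA CON and 8.32, 7.06, 6.49 and 7.72 in shRNA RUS, and the groups overlapped widely. The change between them was 0.17 ± 0.12 on the log2 scale (limma adjusted p = 0.290), with a 95% confidence interval from -0.11 to 0.45. The omission of single libraries moved the value from 0.10 (without shRNA CON replicate 3) to 0.27 (without shRNA CON replicate 4, adjusted p = 0.0570), with no call.

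Bche, the neighbour on the other side, was higher in shRNA RUS on both days. On day 5 its levels were 1.52, 2.24, 2.09 and 1.75 scaled TPM in shRNA CON and 3.33, 2.85, 2.65 and 3.45 in shRNA RUS. On day 7 they were 2.24, 2.51, 2.06 and 2.77 against 8.55, 7.61, 7.25 and 7.24. The groups did not overlap on either day, and the day 7 knockdown libraries were the 4 highest of all 16. Bche changed by 0.67 ± 0.15 on the log2 scale (adjusted p = 0.00782, limma) on day 5 and 1.66 ± 0.10 (adjusted p = 1.59e-06) on day 7. Both calls held under all 18 alternatives, with log2 fold changes from 0.48 to 0.84 on day 5 and from 1.39 to 1.73 on day 7. On day 7 the change of Bche lay above that of 98.8% of the genes tested.

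Other annotated genes around the locus gave few values. Of 17 genes within 1 Mb of RUS, 2 passed the minimum level on day 5 (Slitrk3 and Bche) and 3 on day 7. The third was Gm37056, a locus that the annotation gives no coding or noncoding class, at chr3:73041975-73043839 on the other side of Slitrk3. Its log2 fold change on day 7 was 0.15 (limma adjusted p = 0.670). The sucrase-isomaltase gene Sis, the only other protein-coding gene in this window, had a mean of 0.00875 TPM on day 5 and 0.0138 on day 7 and was not tested.

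Slitrk5 was the one paralog called between shRNA RUS and shRNA CON, in the same direction as Bche. On day 5 its levels were 4.69, 4.72, 4.74 and 4.80 scaled TPM in shRNA CON and 5.38, 6.04, 5.31 and 6.46 in shRNA RUS. On day 7 they were 4.18, 4.57, 3.93 and 4.66 against 6.27, 6.25, 6.50 and 7.56. The groups did not overlap on either day. Its log2 fold change was 0.28 ± 0.09 (adjusted p = 0.0329, limma) on day 5 and 0.62 ± 0.09 (adjusted p = 2.82e-04) on day 7. The day 7 call held under all 18 alternatives. The day 5 call was lost in 9 of 18, among them TPM as deposited (log2 fold change 0.13, adjusted p = 0.388), scaling to the 75th percentile (0.21, adjusted p = 0.139) and the omission of any single one of the 4 shRNA CON libraries or of shRNA RUS replicates 2 or 4.

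Slitrk2 was the most abundant member in every library and was called on neither day. Its levels were 16.9 to 19.3 scaled TPM (shRNA CON) and 15.5 to 20.1 (shRNA RUS) on day 5. On day 7 they were 14.7, 15.1, 15.3 and 16.0 in shRNA CON and 15.1, 13.7, 13.6 and 13.2 in shRNA RUS, and only shRNA RUS replicate 1 reached into the control range. Log2 fold changes of -0.06 ± 0.09 on day 5 and -0.12 ± 0.05 on day 7 had adjusted p-values of 0.670 and 0.0907 in limma. Slitrk2 was called lower on day 7 without shRNA RUS replicate 1 (adjusted p = 0.0257) and with scaling to the 75th percentile (adjusted p = 0.0495).

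Slitrk1 and Slitrk4 were low, and their groups overlapped on both days. Slitrk1 ranged from 0.608 to 1.08 scaled TPM in shRNA CON and from 0.456 to 0.769 in shRNA RUS on day 5. On day 7 it ranged from 1.26 to 1.55 and from 1.22 to 1.53. Slitrk4 ranged from 0.448 to 0.659 against 0.324 to 0.876 on day 5 and from 0.707 to 1.02 against 0.618 to 1.14 on day 7. Neither gene was called, with log2 fold changes of -0.28 ± 0.24 for Slitrk1 and -0.20 ± 0.28 for Slitrk4 on day 5 (limma adjusted p = 0.411 and 0.620). These day 5 values were loose: omitting single libraries gave -0.38 to -0.12 for Slitrk1 and -0.43 to -0.04 for Slitrk4, quantile normalization gave -0.11 and -0.02, and TPM as deposited gave -0.41 and -0.33, with no call. On day 7 both values were near 0 (0.00 ± 0.12 and 0.04 ± 0.20; limma adjusted p = 0.991 and 0.905), and their sign changed with scaling to the 75th percentile. The 95% confidence intervals on day 7 were -0.28 to 0.28 for Slitrk1 and -0.42 to 0.49 for Slitrk4, so that changes of this size could not be seen.

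Slitrk6 was close to the lower limit. Its levels on day 5 were 0.0687, 0.106, 0.0618 and 0.104 scaled TPM in shRNA CON and 0.0592, 0.0234, 0.0347 and 0.0647 in shRNA RUS. On day 7 they were 0.177, 0.248, 0.238 and 0.272 against 0.241, 0.101, 0.0636 and 0.109. On day 7, 3 of the 4 knockdown libraries lay below all control libraries and replicate 1 lay among them. The log2 fold change on day 7 was -0.60 ± 0.30 (limma adjusted p = 0.128), and it was -0.82 with an adjusted p of 0.0427 without that replicate. Pseudocounts of 1 and 0.01 gave -0.14 and -0.94, with no call.

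**Figure D2:**
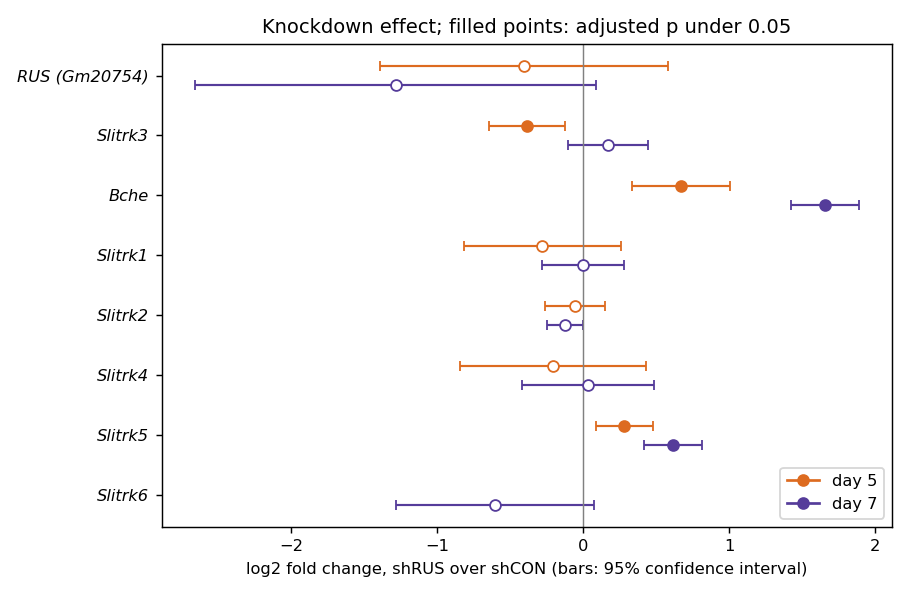
Log2 fold change of shRUS over shCON (horizontal axis) for each of the 8 genes on day 5 and day 7, with 95% confidence intervals from limma. Filled points have an adjusted p under 0.05: Slitrk3 (-0.39), Bche (0.67) and Slitrk5 (0.28) on day 5, and Bche (1.66) and Slitrk5 (0.62) on day 7. Slitrk6 has no day 5 value.

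Whether Slitrk3 responded unlike its paralogs was asked directly, with the log2 difference between Slitrk3 and a paralog in each library. This difference does not depend on the scaling of the library, apart from the value of 0.1 added before the log, which matters for low paralogs. The difference was compared between shRNA CON and shRNA RUS with an exact two-sided permutation test. With 4 against 4 libraries there are 70 arrangements and the smallest possible p is 0.0286. There were 9 pairs, 4 on day 5 and 5 on day 7, and 0 passed after Benjamini-Hochberg adjustment over the 9, while 4 had an unadjusted p under 0.05. With this smallest p, at least 6 of the 9 pairs would have to reach it for any to pass, so that the absence of a pass says little.

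On day 5 the response of Slitrk3 was lower than that of Slitrk5 by 0.67 ± 0.13 on the log2 scale (SE). It was lower than that of Slitrk2 by 0.33 ± 0.10. In both pairs the libraries of the 2 groups did not overlap, which gave the smallest possible exact permutation p of 0.0286 (adjusted p = 0.0643). Against Slitrk1 and Slitrk4 the differences were -0.11 ± 0.16 and -0.18 ± 0.26 (exact permutation p = 0.514 and 0.486), and the groups overlapped. The fall of Slitrk3 on day 5 was thus not distinguished from the changes of these 2 low paralogs, whose own fold changes were also below 0 but had wide errors.

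On day 7 the response of Slitrk3 was again below that of Slitrk5, with a difference of -0.45 ± 0.12 and no overlap (exact permutation p = 0.0286, adjusted p = 0.0643). It was above that of Slitrk6 by 0.77 ± 0.19, also without overlap and with the same p-values. This last value depended on the 0.1 added before the log, which is about the size of the Slitrk6 levels: it was 0.29 with a pseudocount of 1 and 1.11 with 0.01. The differences from Slitrk1 (0.17 ± 0.10), Slitrk2 (0.29 ± 0.12) and Slitrk4 (0.13 ± 0.23) had exact permutation p-values of 0.171, 0.0857 and 0.6.

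A limma fit of the same differences between Slitrk3 and every other gene, added after the data were seen, can reach smaller p-values. It was run without the limma trend, and all its differences share the values of Slitrk3, so that its tests are not independent. Among the paralogs it called Slitrk5 on day 5 (adjusted p = 0.0129) and Slitrk6 on day 7 (adjusted p = 0.0206). It did not call Slitrk2 on day 5 (0.0789) or Slitrk5 on day 7 (0.0526). Differing from Slitrk3 in response was common: 31.6% of 22580 genes on day 5 and 25.5% of 24605 genes on day 7 were called in this fit. In the same fit the response of Slitrk3 differed from that of Bche by -1.06 ± 0.20 on day 5 (limma adjusted p = 0.00828) and by -1.49 ± 0.12 on day 7 (adjusted p = 5.74e-04). The neighbours on either side of RUS thus differed in response on both days.

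**Figure D3:**
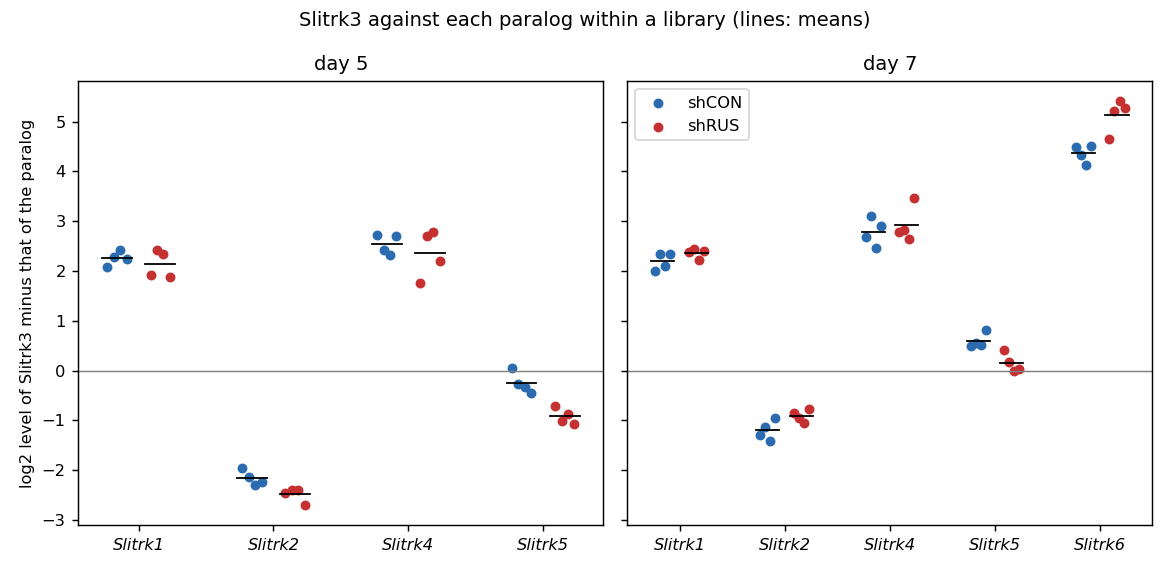
Log2 level of Slitrk3 minus that of a paralog in the same library (vertical axis, log2 units) on day 5 and day 7. Points are libraries with shCON or shRUS and lines are means of 4. The shRUS points lie below all shCON points for Slitrk2 and Slitrk5 on day 5 and for Slitrk5 on day 7, and above them for Slitrk6 on day 7.

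The family was also described by its sum and by the share of each gene in it. The summed level of the 6 Slitrk genes on day 5 was 28.3 ± 1.8 scaled TPM (SD, n = 4) with shRNA CON and 27.4 ± 2.9 with shRNA RUS. On day 7 it was 28.8 ± 2.1 and 30.3 ± 1.7. Within a day the difference between the sums was smaller than the SD of either group. On day 5 Slitrk2 made up 64.0% ± 1.2 of the sum with shRNA CON and 63.5% ± 1.3 with shRNA RUS, a difference smaller than either SD, and 53.2% ± 2.3 and 45.8% ± 1.8 on day 7. These shares were not tested. Slitrk3 made up 14.1% ± 1.3 and 11.0% ± 0.88 in shRNA CON and shRNA RUS on day 5, and 23.1% ± 2.3 and 24.3% ± 1.4 on day 7. Slitrk5 was at 16.8% ± 1.2 and 21.2% ± 1.9 on day 5, and at 15.1% ± 0.71 and 21.9% ± 2.3 on day 7. The other 3 genes together stayed a small part, with Slitrk1 at most 4.77% and Slitrk6 at most 0.809% of the mean sum.

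**Figure D4:**
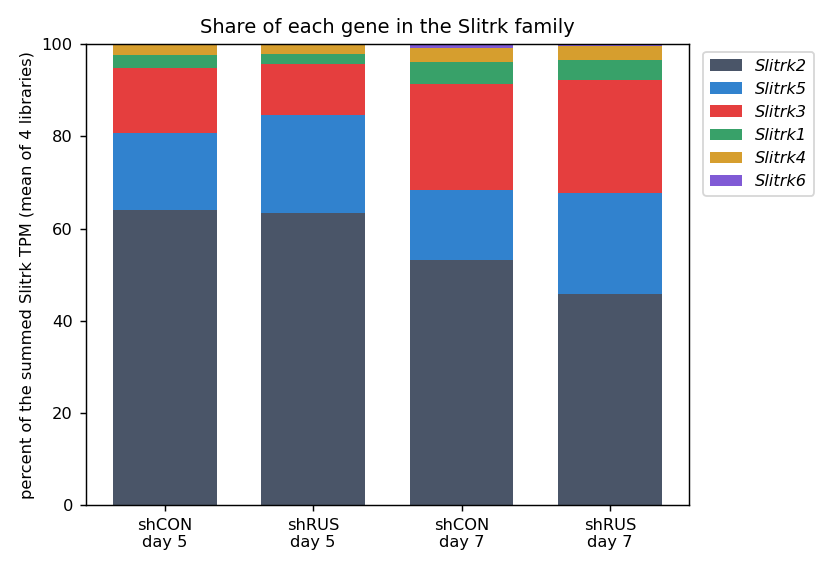
Percent of the summed Slitrk TPM taken by each gene, as the mean of 4 libraries for each shRNA and day (bars start at 0 and add to 100). The Slitrk2 share is 64.0% (shCON) and 63.5% (shRUS) on day 5 and 53.2% and 45.8% on day 7, and the Slitrk5 share is larger in shRUS (21.2% and 21.9%) than in shCON (16.8% and 15.1%).

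The order of the levels was Slitrk2, Slitrk5, Slitrk3, Bche, Slitrk1, Slitrk4, Gm20754 and Slitrk6 in shRNA CON on day 5. The ranges of Slitrk5 and Slitrk3 overlapped there, as did those of Slitrk1 and Slitrk4. In shRNA CON on day 7 Slitrk3 stood second, above Slitrk5 without overlap. In shRNA RUS on day 7 Bche stood second, and its range overlapped with that of Slitrk3, which in turn overlapped with that of Slitrk5.

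Between day 5 and day 7 more members were called higher than lower in both cultures. In shRNA CON 4 of 8 were called higher (Slitrk3, Bche, Slitrk1 and Slitrk6) and 1 was called lower (Slitrk2), beside 26.9% and 21.6% of 23789 genes. In shRNA RUS 5 of 8 were called higher (the same 4 genes and Slitrk4) and Slitrk2 was called lower, beside 35.0% and 25.8% of all genes. Each library's TPM was normalized on its own, but the days were deposited as separate tables, so that day and any difference in handling between the tables cannot be told apart. With TPM as deposited the median of all genes was 0.20 in shRNA CON and 0.41 in shRNA RUS, against 0.07 and 0.13 here. The genes called higher and lower numbered 8573 and 3434 in shRNA CON with TPM as deposited, against 6394 and 5133 here. In shRNA RUS they were 11801 and 3545 against 8317 and 6135.

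Slitrk3 rose by a log2 fold change of 0.72 ± 0.12 in shRNA CON (limma adjusted p = 1.53e-04) and of 1.27 ± 0.12 in shRNA RUS (adjusted p = 2.52e-07). These calls held under every scaling tried. Slitrk1 rose by 0.80 ± 0.19 (limma adjusted p = 0.0023) and 1.07 ± 0.19 (adjusted p = 1.30e-04), and with a pseudocount of 1 by 0.43 and 0.56, still called. Bche rose by 1.30 ± 0.13 in shRNA RUS (adjusted p = 3.20e-07), while its change in shRNA CON was close to the threshold, at 0.32 ± 0.13 (adjusted p = 0.0486). This last call was lost when any single one of 11 of the 16 libraries was omitted (adjusted p from 0.0507 to 0.16). With all libraries it was also lost under quantile normalization (adjusted p = 0.567), with a pseudocount of 1 (0.0628) and with no filter on low values (0.0730).

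Slitrk2 was lower on day 7, by a log2 fold change of -0.24 ± 0.08 in shRNA CON (limma adjusted p = 0.0179) and -0.32 ± 0.08 in shRNA RUS (adjusted p = 0.00215). Both calls depended on the scaling. With TPM as deposited the values were -0.09 and 0.01 (adjusted p = 0.458 and 0.968), and with scaling to the 75th percentile they were -0.17 and -0.21 (adjusted p = 0.142 and 0.0511). The call in shRNA CON was also lost without replicate 1 of day 5 (adjusted p = 0.0526).

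Slitrk6 rose by 0.85 ± 0.25 in shRNA CON (adjusted p = 0.0113) and by 0.61 ± 0.25 in shRNA RUS (adjusted p = 0.0498), the latter a call that 15 of the 16 omissions of a single library removed. Quantile normalization removed both calls, with values of 0.57 (adjusted p = 0.0911) and 0.08 (adjusted p = 0.823). The size of the change followed the value added before the log, being 0.18 (shRNA CON) and 0.11 (shRNA RUS) at a pseudocount of 1 and 1.37 and 1.25 at 0.01, and at 1 the call in shRNA RUS was lost (adjusted p = 0.0915).

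Slitrk4 rose by 0.73 ± 0.25 in shRNA RUS (adjusted p = 0.0191). This call was lost with quantile normalization (0.38, adjusted p = 0.196) and without shRNA RUS replicate 2 or 3 of day 5 or replicate 1 of day 7 (adjusted p from 0.0609 to 0.0705). Its change of 0.49 ± 0.25 in shRNA CON was not called (adjusted p = 0.116), but it was with TPM as deposited (0.63, adjusted p = 0.0444). Slitrk5 was not called in either culture, at -0.13 ± 0.08 in shRNA CON (adjusted p = 0.230) and 0.19 ± 0.08 in shRNA RUS (adjusted p = 0.0578). These values too moved with the scaling. In shRNA RUS Slitrk5 was called higher with TPM as deposited (0.51, adjusted p = 2.03e-04) and with scaling to the 75th percentile (0.30, adjusted p = 0.00707), while quantile normalization gave 0.01. It was also called there with a filter at 1 TPM (adjusted p = 0.0476), without the limma trend (0.0490) and without shRNA RUS replicate 4 of day 5 (0.0199). In shRNA CON quantile normalization called it lower (-0.29, adjusted p = 0.0077), and TPM as deposited gave 0.02. The change of Gm20754 was called in neither culture, at 1.10 ± 0.55 in shRNA CON (limma adjusted p = 0.114) and 0.28 ± 0.55 in shRNA RUS (adjusted p = 0.686). With a pseudocount of 1 it was called in shRNA CON (0.36, adjusted p = 0.0364).

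Whether shRNA RUS acted differently on the 2 days was tested as an interaction in 1 fit over the 16 libraries. Of the 8 members, 2 were called higher, that is, with a more positive effect on day 7, and 0 lower (0 also at an unadjusted p under 0.05 in limma), beside 15.2% called higher and 14.6% called lower of all genes. The effect on Bche was larger on day 7, by a log2 difference of 0.97 ± 0.18 (limma adjusted p = 0.00104), and stayed called in all 25 alternatives. The effect on Slitrk3 differed by 0.54 ± 0.17 (limma adjusted p = 0.0275), from a fall on day 5 to a value not called on day 7. This call was lost with quantile normalization (adjusted p = 0.0595) and without any single one of 6 libraries (shRNA CON replicate 1 and shRNA RUS replicate 3 of day 5, shRNA CON replicates 1 and 3 and shRNA RUS replicates 1 and 4 of day 7). For Slitrk5 the effect differed by 0.32 ± 0.12, just short of the threshold (limma adjusted p = 0.0529). It was called with TPM as deposited (0.49, adjusted p = 0.0118), with scaling to the 75th percentile (0.35, adjusted p = 0.0413), with a filter at 1 TPM (0.0386) and without the limma trend (0.0461). It was also called without shRNA RUS replicate 4 of day 5 (0.0202) or shRNA CON replicate 4 of day 7 (0.0442). With TPM as deposited the median of all genes was 0.19 against 0.04 here, with 5700 genes called higher and 2053 lower against 3626 and 3464.

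Markers of other cell types moved with the shRNA. Their counts stand beside 14.8% called higher and 17.9% called lower of all genes tested on day 5, and 23.4% and 25.8% on day 7. All 8 cycling cell markers were lower in shRNA RUS on both days, and their summed level was 747 to 778 scaled TPM on day 5 with shRNA CON and 409 to 454 with shRNA RUS, and 755 to 764 and 296 to 331 on day 7. Of the 8 microglia markers, 2 were lower on day 5 and 8 on day 7, where the sum was 274 to 300 in shRNA CON and 124 to 155 in shRNA RUS. Of the 8 oligodendrocyte lineage markers, 4 were lower on day 5 and 6 on day 7, with sums on day 7 of 375 to 412 and 239 to 263. Astrocyte markers summed to 5372 to 5602 and 6928 to 7161 on day 5 and to 3292 to 3442 and 3896 to 4076 on day 7, with 2 of 8 called higher and 1 lower on day 5, and 3 and 2 on day 7. Stem cell and radial glia markers summed to 16971 to 20519 in shRNA RUS on day 5 and 6565 to 7157 on day 7, with 4 of 8 higher and 2 lower on day 5 and 3 and 3 on day 7. Of 10 neuron markers, 2 were higher and 2 lower on day 5 and 5 higher and 3 lower on day 7. The sums were 531 to 596 and 722 to 859 in shRNA RUS, within or overlapping with the control ranges. Of the 8 fibroblast, meningeal and vascular markers 6 were tested, with 1 higher on day 5 and 3 on day 7, and sums on day 7 of 15.1 to 17.1 against 31.7 to 35.7. No marker was at 0 in all 16 libraries, and Lum and Cldn5 were at 0 in 1 and 10 of them. The part of these shifts in the changes of Slitrk3, Slitrk5 and Bche was not tested.

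The known binding partners of the family were measured beside it. The share called over all genes tested, beside this and the following lists, was 14.8% higher and 17.9% lower on day 5. On day 7 it was 23.4% and 25.8%. Of the 3 LAR-type receptor phosphatases, 0 were called by limma on day 5, with 0 at an unadjusted p under 0.05, and 2 were called higher in shRNA RUS on day 7. On day 7 Ptprs was at 185 ± 12 scaled TPM (SD, n = 4) with shRNA CON and at 265 ± 20 with shRNA RUS (log2 fold change 0.53 ± 0.07 SE, limma adjusted p = 1.25e-04). Ptprf was at 84.5 ± 5.3 and 141 ± 8.8 (0.75 ± 0.06, limma adjusted p = 8.40e-06). Ptprd, the partner known for Slitrk3, was at 29.3 ± 1.5 and 27.8 ± 2.4 and was not called (-0.07 ± 0.07, limma adjusted p = 0.443). The median log2 fold change of the 3 was -0.08 on day 5 and 0.53 on day 7, beside -0.06 and -0.03 over all genes.

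Of 6 other partners of these phosphatases, 2 were called higher and 0 lower on day 5, and 3 of 5 tested were higher on day 7. Among the most abundant, Lrfn4 rose on day 5 (log2 fold change 0.72 ± 0.16, limma adjusted p = 0.00746) and on day 7 (0.66 ± 0.07, adjusted p = 3.93e-05). Lrrc4b rose on day 7 (46.8 ± 4.7 to 76.6 ± 11 scaled TPM, limma adjusted p = 4.47e-04). The log2 fold change of Il1rap was -0.35 on day 5 and 0.07 on day 7 and was not called (adjusted p = 0.0580 and 0.366). The median of the list was 0.37 and 0.66 on the 2 days.

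Of 24 other adhesion genes with leucine-rich repeats, 1 was called higher and 3 lower on day 5, and 7 higher and 3 lower on day 7. Over all genes tested the shares were 14.8% and 17.9% on day 5 and 23.4% and 25.8% on day 7. The most abundant were Lrrn3, Lrrn1 and Lrrn2. Lrrn1 was lower on both days (log2 fold changes -0.22 and -0.14, limma adjusted p = 0.0376 and 0.0171), and Lrrn3 (-0.01 and 0.01) and Lrrn2 (0.03 and 0.16) were not called. The list's median was -0.12 and 0.18. The family is named after the Slit and Trk genes. Of these, Ntrk3 was counted among the other partners of the phosphatases above. It was called higher in shRNA RUS on day 5 and day 7 (limma adjusted p = 0.0107 and 5.04e-06). Of the other Slit and Trk genes, 4 were tested. On day 7, 0 of these were called, with 0 at an unadjusted p under 0.05 in limma. On day 5, 1 of the 4 was lower. This was Slit1, an axon guidance ligand, at 6.29 ± 1.2 scaled TPM with shRNA CON and 3.57 ± 0.60 with shRNA RUS (limma adjusted p = 0.0052). Ntrk2, the receptor of BDNF, was at 697 ± 43 and 645 ± 23 on day 5 and was not called on either day, nor was Slit2 (log2 fold changes -0.10 and 0.06).

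Of 10 inhibitory synapse genes, 3 were called higher and 4 lower on day 5, and 7 higher and 3 lower on day 7. Nlgn2, a postsynaptic adhesion protein of inhibitory synapses, rose on both days, by 0.40 and 0.64 on the log2 scale (limma adjusted p = 0.00153 and 5.28e-05). Gad1, which makes GABA, was lower on day 5 (-0.34, limma adjusted p = 0.011) and higher on day 7 (0.27, adjusted p = 0.00271). The median of the list was -0.03 and 0.45.

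Of 6 cholinergic genes, 4 were tested on day 5 and 2 on day 7. On day 5, 1 was lower, Colq, the collagen tail of cholinesterases. On day 7, 1 was higher, Prima1, which anchors cholinesterase in the membrane (0.343 ± 0.036 against 0.834 ± 0.30 scaled TPM, limma adjusted p = 0.00414). Ache, the acetylcholinesterase gene and paralog of Bche, was at 1.14 ± 0.15 and 0.862 ± 0.20 on day 5 and at 0.517 ± 0.082 and 0.524 ± 0.15 on day 7, and was called on neither day (limma adjusted p = 0.146 and 0.996). Slc18a3, the vesicular acetylcholine transporter, was at 0.649 ± 0.15 and 0.682 ± 0.21 on day 5 and was not called. Chat, the enzyme that makes acetylcholine, was at 0 in 8 of the 16 libraries. The list's median was -0.24 and 0.53.

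The genes whose pattern over the 16 libraries was most like that of a member were found by Pearson r of log2 levels among 15898 genes whose mean reached 1 TPM. The points share 4 groups of 4 libraries, so that r describes mainly the group means. Slitrk3 was most like Hdgfl3 (r = 0.982), Ap1s2 (0.980) and Fnbp1l (0.979). These genes were likewise called lower in shRNA RUS on day 5 (log2 fold changes -0.34, -0.28 and -0.41, limma adjusted p = 0.0099, 0.0182 and 0.00628). They were called in the interaction as well (0.46, 0.47 and 0.40, limma adjusted p = 0.00436, 0.0112 and 0.0334). They were chosen on these same libraries, so that this resemblance follows in part from the choice. Bche was most like Mex3c (0.980), Mindy2 (0.978) and Resf1 (0.977). Slitrk5 was most like Mknk1 (0.956), Pex26 (0.955) and Pias3 (0.949). Slitrk2 was most like Sgpl1 (0.962), Slc1a3 (0.958), the glutamate transporter of radial glia and astrocytes, and Ahcyl1 (0.939), and Slitrk1 was most like Kdm5a (0.974), Mfap3 (0.974) and Pias1 (0.968). Gm20754, Slitrk4 and Slitrk6 had means under 1 TPM and were left out.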

How the data were processed

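Libraries were made by the authors from polyA RNA and sequenced on an Illumina instrument. Alignment (STAR) used mm10 with a GRCm38 transcript set and quantification used RSEM. For each day the authors deposited a table of TPM, which sum to about 1000000 in every library. The tables also give the authors' base mean, the average normalized signal of the 8 libraries of a day, which is printed as the authors' value. Further columns of the deposited tables hold the authors' own DESeq2 comparison (log2 fold changes, their errors, test statistics and p-values), and none of these were used. The tables hold no counts, so depth is unknown and no counting interval is given.

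TPM were divided by median-ratio library factors (genes with at least 1 TPM in all libraries of a fit), 0.1 was added before the log2, and genes whose mean reached 0.1 TPM were tested with limma 3.58.1 in R 4.3.3 (lmFit, eBayes with trend, two-sided, Benjamini-Hochberg adjustment, threshold 0.05). Knockdown effects were fitted on the 8 libraries of a day. Comparisons between days and the interaction were fitted on all 16 libraries, with 106 of 55471 lines left out because their symbols differed or were missing. The paralog comparison used exact permutation, and the later limma fit of the differences had no trend. The limma fit of the groups was tested on simulated data. Figures were drawn with matplotlib 3.10.9. Alternatives were other pseudocounts, filters and scalings, no trend, a replicate block, a joint fit of both days and the omission of each library.

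The members and gene lists were chosen with earlier results of these data known. Named in the text were all members, the 3 genes of each pathway list with the highest mean TPM, the 3 genes most like each member whose mean reached 1 TPM, and tested genes within 1 Mb of RUS. Of the genes this rule names, 1 is not reported here. Sis, Colq, Chat and Ntrk3 were named outside this rule, after their values were seen. The same holds for the markers Lum, Cldn5, Vim, Fabp7 and Nes. Positions came from GENCODE vM21, a release that the authors did not use, and promoter windows from RefSeq. Protein sequences were not used here.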

Additional observations from a re-analysis of the deposited data

Results flagged for a closer look

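The level of Slitrk4 in shRNA CON replicate 4 on day 5 was 0.448 scaled TPM, while the other 3 libraries of its group lay between 0.637 and 0.659. The gap to the nearest of them took 0.893 of the group's range, above Dixon's 95% critical value for 4 samples. It was the one such library among 32 groups of 4 values checked, where chance alone flags about 1 in 20. Slitrk4 was not called on day 5 with or without this library.

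The effect of shRNA RUS against shRNA CON differed between day 5 and day 7 for Slitrk3 and for Bche. The differences were 0.54 and 0.97 on the log2 scale in the interaction test of limma (adjusted p = 0.0275 and 0.00104). The value for Bche stayed above 0 and called in all 25 alternatives. That of Slitrk3 stayed above 0 in all 25 and lost its call in 7 of them, with adjusted p-values up to 0.0605.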

How the results depend on the processing

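The number of members called on day 5 was 3 and fell to 1 when the replicate number was added as a block, with only Bche left (limma adjusted p = 0.0428, against 0.0614 for Slitrk3 and 0.0973 for Slitrk5). It lay between 1 and 3 when single libraries were omitted. The replicate numbers did not pair the libraries, since same-numbered libraries of the 2 shRNAs deviated together with r from -0.105 to 0.0325 and 2 of 8 correlated best with their own number. With the block 3 members were called on day 7, Gm20754 being added (adjusted p = 0.0358), 4 between days in shRNA CON (Bche lost, 0.0697), 6 in shRNA RUS (Slitrk5 gained, 0.0343, and Slitrk6 lost, 0.0691) and 3 in the interaction (Slitrk5 gained, 0.0339). On day 7 the count was 2, between 2 and 5 over the omissions, and 5 without shRNA RUS replicate 1. Between days it ranged over the omissions from 3 to 5 in shRNA CON (3 without shRNA CON replicate 1 of day 5) and from 4 to 6 in shRNA RUS. In shRNA RUS it was 4 with quantile normalization and 7 without the limma trend. The interaction called 2 members, 1 with quantile normalization, and 1 to 3 over the omissions. Of the paralog pairs 0 passed in the exact test, which 4 against 4 libraries and 9 pairs could hardly allow, and 1 on each day passed with limma on the differences, which was chosen after seeing the data. Signs changed only for values that were not called or that lost their call. On day 7 Slitrk1 was at -0.054 with scaling to the 75th percentile and -0.011 in the 16-library fit, and Slitrk4 at -0.018 with the former. Over the omissions they ran from -0.048 to 0.053 and from -0.070 to 0.194. With TPM as deposited the day change of Slitrk5 in shRNA CON was 0.020, that of Slitrk2 in shRNA RUS 0.0056 and the interaction of Slitrk2 0.094. The day change of Gm20754 in shRNA RUS ran from -0.148 to 0.711 over the omissions, and the difference of Slitrk3 from Slitrk4 from -0.322 to 0.017 on day 5 and from -0.044 to 0.239 on day 7. The cause of these changes was not tested. Without counts, the precision of Gm20754 and Slitrk6 cannot be given beyond the spread of 4 libraries.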
